A study of Danio rerio with 6 samples.

Results

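The miR-430 family is the most abundant miRNA family of the early zebrafish embryo, and its 5p entries are described here. These are all entries of the deposited miRNA table whose names start with dre-miR-430 and end with -5p, 13 of the 464 entries listed. The family has 17 entries in all, of which the remaining 4 are 3p arms. The libraries were made from whole wild type AB embryos at 5.5 h post fertilization (50% epiboly), with 3 pools of 100 embryos from parents exposed to gamma radiation from a cobalt source (F1-γ) and 3 pools of 100 embryos from non-exposed parents (F1-C). The exposed parents had received 8.7 mGy/h during gametogenesis, a total of 5.2 Gy, and both groups were bred 1 year after the exposure. The question was whether parental exposure was followed by altered small RNA levels in offspring that had not been irradiated themselves. Each library is a pool, so differences between single embryos or single mating pairs are not visible in it. Because whole embryos were sequenced, fewer cells of a type and less RNA per cell cannot be told apart.

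A miRNA hairpin is cut by Drosha and Dicer into a short duplex with a 5p and a 3p strand. Argonaute usually keeps one strand as the guide, and the other is released and degraded. The miR-430 hairpins are among the first RNAs the zebrafish embryo transcribes from its own genome. Their 3p strands act as guides that promote deadenylation and clearance of maternal mRNAs, and their 5p strands are known mainly as the passenger partners. The hairpins are encoded by many near-identical copies in a cluster, so a short read can match several copies equally well.

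In the RefSeq annotation of GRCz12tu, which is not the build that was used to make the files and served for names and neighbours only, 58 genes carry a miR-430 name. Of these, 57 lie on chromosome 4 and 1, mir430a-1, lies on chromosome 10. On chromosome 4 there are 17 genes of type a, 19 of type b, 18 of type c and 3 of type i. The genes of the types are interleaved. For example, mir430a-12 lies between mir430b-5 and mir430c-16, and mir430a-11 lies between mir430b-7 and mir430i-2. Each of mir430a-4, mir430a-11 to mir430a-17 and mir430i-1 to mir430i-3, which are 11 genes, has another miR-430 gene on either side.

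The labelled stage was checked against the table. The 17 miR-430 entries took between 83.9% and 88.4% of all miRNA counts in every library. With counts shared between entries taken once (below), the family took between 81.2% and 85.1%. By contrast, 11 miRNAs of later muscle, liver, brain, blood, skin and vessel were summed in CPM (counts scaled to a common library total). They came to between 2030 and 2212 CPM in F1-C and between 1903 and 2177 CPM in F1-γ. Within these sums, 3 of the 11 markers did not overlap between the groups, 2 with F1-γ higher and 1 with F1-γ lower. Of all 122 tested miRNAs, 33.6% did not overlap, in CPM after the scaling described below. dre-miR-205-5p, a skin miRNA, had 623 to 678 CPM in F1-C, against 165 to 217 CPM in F1-γ. Of the 3 markers that could be tested it was the 1 called (log2 FC -1.79, edgeR adjusted p = 0.000297), where 9.02% of all tested miRNAs were called. The other skin miRNA, dre-miR-203a-3p, went the other way, with 878 to 1001 CPM in F1-C, against 989 to 1173 CPM in F1-γ. It was not called (log2 FC 0.19, edgeR adjusted p = 0.542). Its groups overlapped in these CPM, but not after the scaling described below. dre-miR-9-5p, a brain miRNA, had 353 to 409 CPM in F1-C, against 465 to 555 CPM in F1-γ, and dre-miR-1-3p, a muscle miRNA with too few counts for the test, had 22.7 to 29.1 CPM, against 46.8 to 122.8 CPM. Whether these differences have a part in the miR-430 values was not tested. The total on miRNAs was 704953 to 1167284 in F1-C and 1245801 to 1464138 in F1-γ. The least counted 5p value, dre-miR-430c-5p in F1-C replicate 1 with 3091 counts, has a counting error of 1.8%, so the spread between libraries and not depth set the precision. Chi-square over its degrees of freedom sets a pair of libraries against counting error only, and not against the spread between pools. Entries that repeat the same counts (below) were each included, which can add to the value, and it grows with depth. It therefore compares pairs and does not measure agreement with counting error. For pairs of F1-C libraries it was between 31.6 and 49.7. F1-γ replicate 2 stood apart, with values of 580 and 345 against the other F1-γ libraries, which had 81.7 between them. Results that rest on this library are therefore also given without it, apart from the likeness to other miRNAs (below).

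The 13 entries hold only 4 distinct series of counts, and whether these series share part of their reads was not tested. Of the 13 entries, 10 are whole multiples of the same number in every library, within 0.001 of a whole number. That number, called 1 unit here, was 1425 counts in F1-C replicate 1, 2754 in F1-C replicate 2 and 2688 in F1-C replicate 3. In F1-γ it came to 2719 counts in replicate 1, 4896 in replicate 2 and 2722 in replicate 3. In these counts, which are not scaled to library size, the unit was highest in F1-γ replicate 2. The other 2 F1-γ libraries were within the range of F1-C as counted, and below the lowest F1-C library after scaling (below).

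The entry dre-miR-430-5p held 11 units, dre-miR-430i-5p held 3 units, and dre-miR-430a-12-5p held 8 units in each of the 6 libraries. The counts of dre-miR-430a-4-5p and dre-miR-430a-13-5p to dre-miR-430a-17-5p were identical to those of dre-miR-430a-12-5p, which makes 7 identical entries. The generic entry is therefore the sum of an a entry and the i entry, and dre-miR-430i-5p took 27.3% of that sum in every library. This share is fixed by the counting and carries no measurement of the i hairpins. The 8 a entries and the 3 i genes correspond in number to the 8 and 3 units, and 8 plus 3 to the 11 units. Outside the shared series the counts, in hundredths, had largest common divisors over the 6 libraries of 18 for dre-miR-430c-5p and dre-miR-430c-3p and 3 for dre-miR-430i-3p, the numbers of type c and type i genes in the annotation. The divisors of the type b entries (100 for dre-miR-430b-5p and 10 for dre-miR-430b-3p) and of the type a entries (8 for dre-miR-430a-5p and 2 for dre-miR-430a-3p) did not equal the gene numbers of their types.

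An exception stood among the a entries. In F1-C replicate 3, dre-miR-430a-11-5p held 16 units (43013 counts) where the 7 identical entries held 8 units (21507 counts). In the other 5 libraries it held the same 8 units as they did. Across the 122 miRNAs with more than 30 counts in every library, 36 pairs of entries stood in a fixed ratio, with centred log2 counts within 0.001. All 36 were pairs of miR-430 5p entries, and 0 involved any other miRNA. No such pair was found among the 3p entries.

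**Figure D1:**
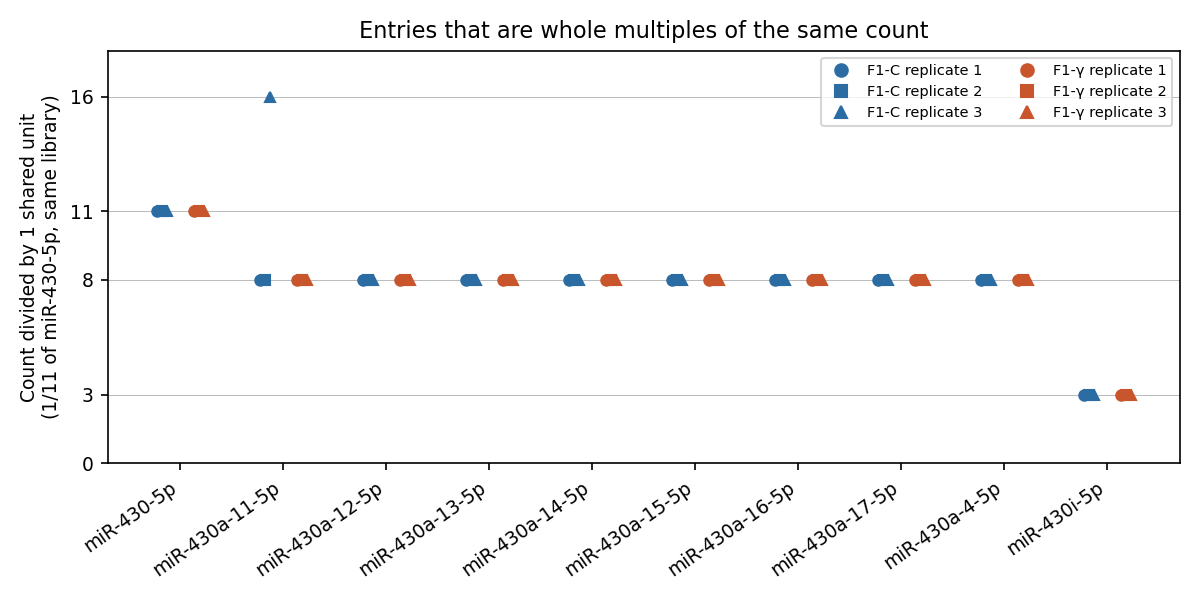
Count of each of 10 miR-430 5p entries divided by 1 shared unit (1/11 of the dre-miR-430-5p count of the same library), for 3 F1-C and 3 F1-γ libraries (points). The entries sit at 3, 8 or 11 units in every library, apart from dre-miR-430a-11-5p at 16 units in F1-C replicate 3.

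The repeated entries raised the family's apparent weight. Summed over the 10 entries, the shared counts were 7.09 times those of dre-miR-430-5p in 5 libraries and 7.82 times in F1-C replicate 3. Counts beyond the single entry dre-miR-430-5p made up 12.4% to 23.7% of all counts in the miRNA table, with the highest share in F1-γ replicate 2. With the entries as listed, 5p arms took 36.1% ± 2.16 (SD, n = 3) of the miRNA counts in F1-C, against 32.8% ± 2.81 (SD, n = 3) in F1-γ. With the shared reads counted once, as dre-miR-430-5p, a choice made after the counts were seen, these became 24.1% ± 1.04 and 19.0% ± 2.62 (SD, n = 3).

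Within the family, the 13 entries as listed took 38.7%, 43.1% and 42.9% of the miR-430 counts across F1-C, against 35.9%, 40.7% and 37.2% across F1-γ. The groups overlapped. With the shared reads counted once, the 5p share was 27.4%, 29.6% and 28.6% in F1-C, against 25.1%, 19.0% and 23.9% in F1-γ, and every F1-γ library was below every F1-C library. The means were 28.5% ± 1.14 and 22.7% ± 3.24 (SD, n = 3), a difference of -5.83 percentage points. F1-γ replicates 1 and 3 alone were also below the lowest F1-C library. A sum over chosen entries was not tested.

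**Figure D2:**
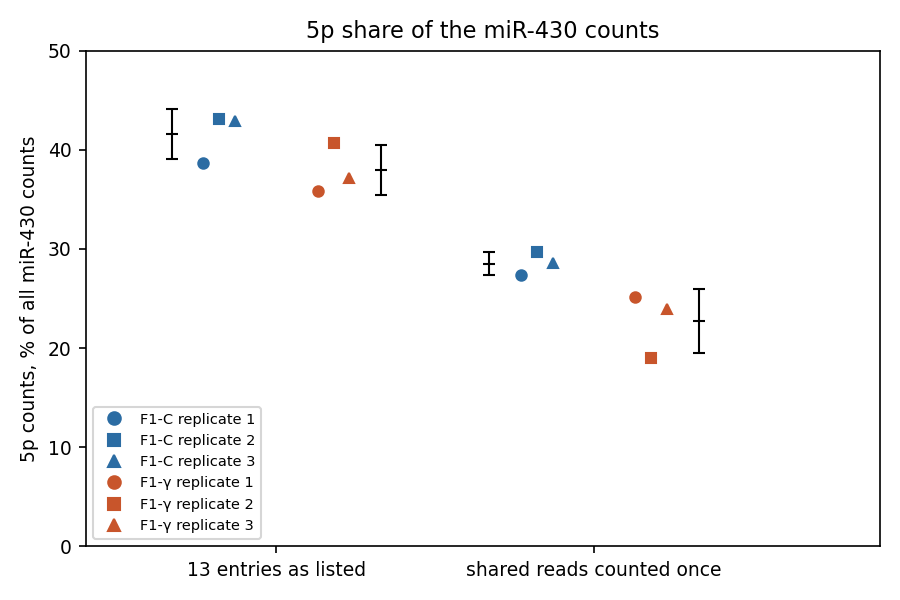
Share of 5p counts among all miR-430 counts (%) in 3 F1-C and 3 F1-γ libraries (points), with the group mean and SD (black bars), for the 13 entries as listed and with the shared reads counted once. The groups overlap as listed, and with shared reads counted once the F1-γ libraries (19.0% to 25.1%) lie below the F1-C libraries (27.4% to 29.6%).

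Levels are given below as CPM after TMM scaling (a trimmed mean of log ratios between libraries), which sets the scale so that most miRNAs are unchanged. The 4 distinct series kept the same order in each of the 6 libraries, with dre-miR-430b-5p highest, then dre-miR-430-5p, dre-miR-430a-5p and dre-miR-430c-5p. Mature miRNAs are of nearly equal length, so counts were compared without a length correction. Counts of different sequences were not calibrated to numbers of molecules. Over all libraries dre-miR-430-5p ranged from 21462 to 40414 CPM and dre-miR-430a-5p from 12692 to 21663 CPM, so that these neighbours overlapped between libraries although not within any library. The other neighbours did not overlap.

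dre-miR-430b-5p, the 5p arm of the type b hairpins, had 158934, 178566 and 137456 CPM in F1-C, against 158083, 64390 and 112003 CPM in F1-γ. Its counts were whole numbers in every library, and it shares no fixed ratio with another entry. F1-γ replicate 2 was far below all other libraries, F1-γ replicate 1 was within the range of F1-C, and the groups overlapped. The group means were 158319 ± 20562 and 111492 ± 46849 CPM (SD, n = 3).

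The shared series, read from dre-miR-430-5p, had 22039, 31161 and 23266 CPM in F1-C, against 21463, 40414 and 21757 CPM in F1-γ. Here F1-γ replicate 2 was the highest library, opposite to its place for dre-miR-430b-5p, and the other F1-γ libraries were below the lowest F1-C library. These counts stand under type a and type i names alike, so no value can be given for either type alone.

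dre-miR-430a-5p, the type a entry without a copy number, had 14088, 21663 and 14693 CPM in F1-C, against 12692, 19399 and 13342 CPM in F1-γ. Replicate 2 was the highest in each group, and the groups overlapped. dre-miR-430c-5p, the 5p arm of type c, was the least abundant, with 4346, 6017 and 4308 CPM in F1-C, against 3773, 3609 and 2998 CPM in F1-γ. It was the only 5p entry whose groups did not overlap, and F1-γ was lower.

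**Figure D3:**
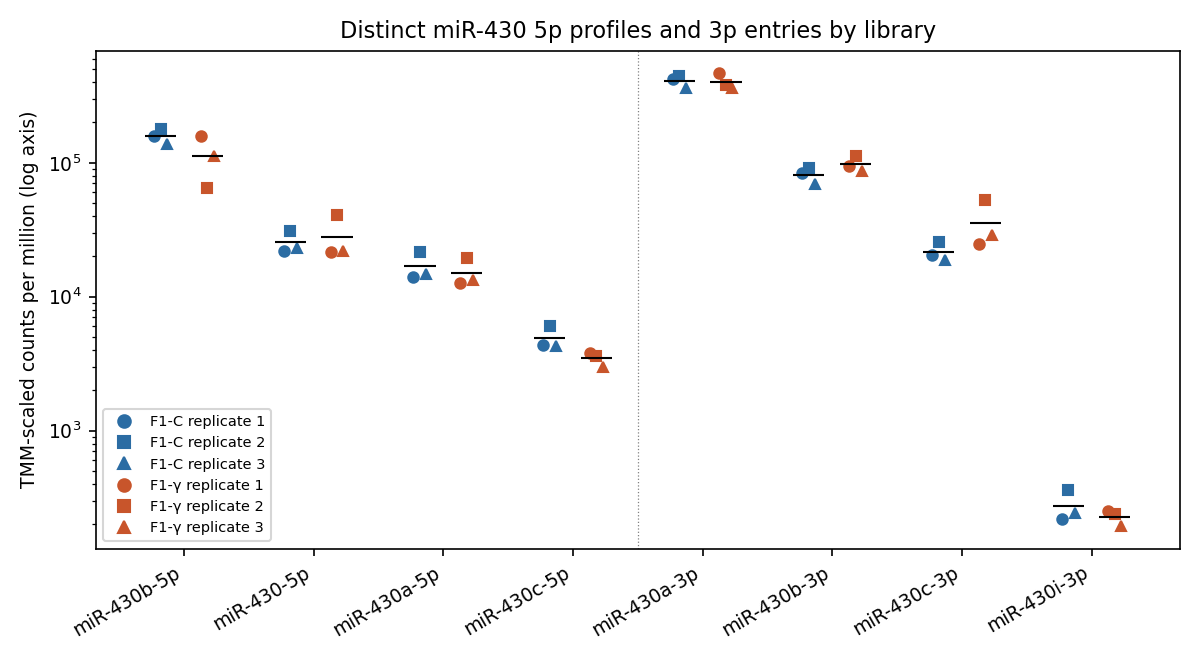
TMM-scaled CPM (log axis) of the 4 distinct miR-430 5p series and the 4 3p entries in 3 F1-C and 3 F1-γ libraries (points), with group means (lines). F1-γ replicate 2 is the lowest library for dre-miR-430b-5p (64390 CPM) and the highest for dre-miR-430-5p (40414 CPM) and dre-miR-430c-3p (52997 CPM).

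F1-γ was compared with F1-C by edgeR's quasi-likelihood test over the 122 miRNAs with more than 30 counts in every library, and a miRNA was called at an adjusted p below 0.05 with a log2 fold change (log2 FC) above 0.6 or below -0.6. All 13 members of the 5p set passed the count minimum, and 0 were called, where 9.02% of all tested miRNAs were called (5 higher and 6 lower, the latter 4.92% of those tested). By DESeq2 0 members were called too. At an unadjusted p below 0.05 there was 1 member, dre-miR-430c-5p, against 27.0% of all tested miRNAs. Of the 4 distinct series, 1 did not overlap between the groups, while 33.6% of all tested miRNAs did not overlap and 13.1% did so with F1-γ lower.

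The largest differences were those of dre-miR-430b-5p, with a log2 FC of -0.51 (standard error, SE, 0.34, edgeR adjusted p = 0.401), and dre-miR-430c-5p, with a log2 FC of -0.50 (SE 0.21, edgeR adjusted p = 0.132). Relative to the median log2 FC of all tested miRNAs, which was 0.13, these were -0.63 for each. That median depends on the repeated entries, and both log2 FC stayed below it when repeats were removed. With the shared reads kept once, a setting added after seeing the data, the median was 0.07. The log2 FC was then -0.52 for dre-miR-430b-5p and -0.49 for dre-miR-430c-5p. With identical entries once and sums removed, as set at the start, the median was -0.01. In that setting the log2 FC was -0.58 for dre-miR-430b-5p and -0.57 for dre-miR-430c-5p. Calls of both depended on the setting. dre-miR-430b-5p was called without F1-γ replicate 1 (log2 FC -0.85, edgeR adjusted p = 0.0224), where 26 of all 122 tested miRNAs were called. Without F1-γ replicate 2 the log2 FC of dre-miR-430b-5p was -0.18. dre-miR-430c-5p was called under upper-quartile normalization (log2 FC -0.83, edgeR adjusted p = 0.0219), which moved the median of all tested miRNAs to -0.23. In that setting 16 of the 122 miRNAs were called. Over all settings the adjusted p of dre-miR-430c-5p ranged from 0.0219 to 0.795, and that of dre-miR-430b-5p from 0.0224 to 0.883.

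dre-miR-430a-5p had a log2 FC of -0.15 (SE 0.26, edgeR adjusted p = 0.770). The shared series had a log2 FC of 0.13 (SE 0.29, edgeR adjusted p = 0.770), and its sign changed under upper-quartile normalization (-0.23) and without F1-γ replicate 2 (-0.18). The 9 entries in fixed ratio returned this estimate 9 times, and it coincides with the median of all tested miRNAs. With the shared reads kept once, that median was 0.07 and the series had 0.15. With identical entries once and sums removed, the median was -0.01 and the series had 0.06. dre-miR-430a-11-5p, which differs from the identical entries only in F1-C replicate 3, had a log2 FC of -0.25 (SE 0.33, edgeR adjusted p = 0.709) against 0.13 for those entries. Without that library it had 0.07. The direction of this entry thus rests on 1 value.

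**Figure D4:**
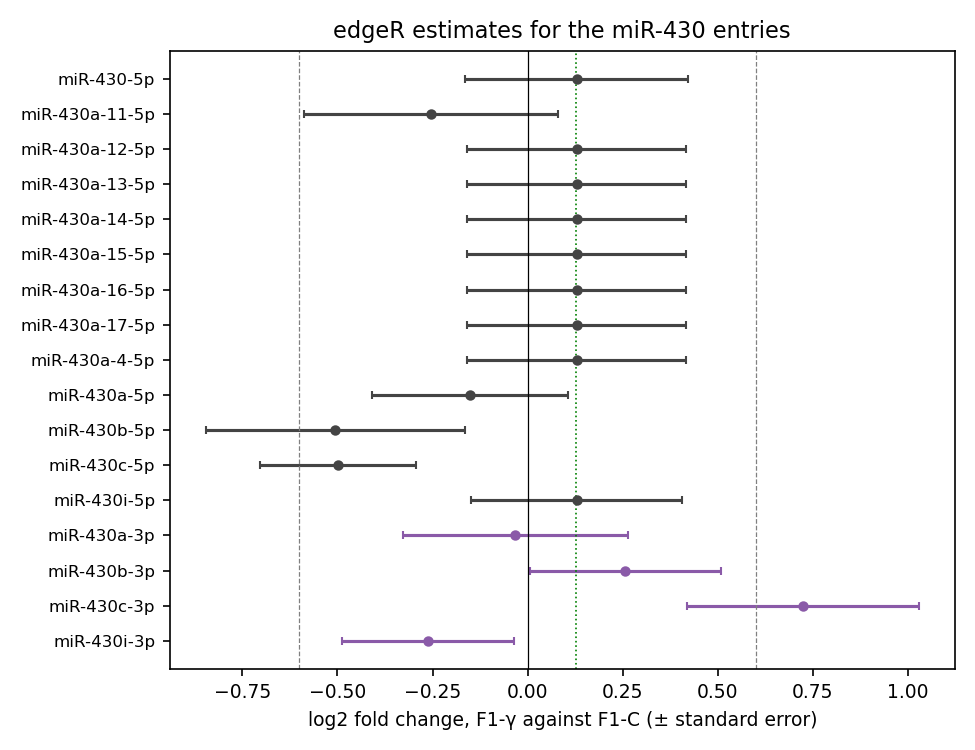
log2 FC of F1-γ against F1-C with its standard error from the edgeR fit for the 13 5p entries (grey) and the 4 3p entries (purple). Dashed lines mark the thresholds of 0.6 and -0.6, the dotted line the median of all tested miRNAs (0.13), and 9 5p entries repeat the same estimate of 0.13.

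The 3p entries, the arms known as the guides of miR-430 hairpins, were set beside the 5p entries. Of these 4 entries, 0 were called. dre-miR-430a-3p, the most abundant miRNA of the table, had 424881, 446794 and 360631 CPM in F1-C, against 465090, 379034 and 361291 CPM in F1-γ. Its log2 FC was -0.03 (SE 0.30). dre-miR-430b-3p had 83999, 90882 and 69889 CPM in F1-C, against 93879, 111826 and 86824 CPM in F1-γ. Its log2 FC was 0.26 (SE 0.25). Both overlapped between the groups.

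dre-miR-430c-3p had 20384, 25424 and 18747 CPM in F1-C, against 24767, 52997 and 28863 CPM in F1-γ. F1-γ replicate 2 was the highest library, and F1-γ replicate 1 was below F1-C replicate 2. Its log2 FC was 0.72 (SE 0.31, edgeR adjusted p = 0.142), and it was not called. It was called without F1-γ replicate 1 (0.86, edgeR adjusted p = 0.0211), where 26 of all 122 tested miRNAs were called. Without F1-γ replicate 2 the log2 FC of dre-miR-430c-3p was 0.37 (edgeR adjusted p = 0.114). dre-miR-430i-3p was the rarest, with 194 to 357 CPM, and its log2 FC was -0.26 (SE 0.23).

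The ratio of the arms within a library needs no scaling, and it was compared with limma on log2 ratios for 20 pairs of arms with more than 30 counts each in every library. These pairs include dre-miR-430a-12-5p, which has no 3p entry of its own and was set beside dre-miR-430a-3p. The 5p to 3p ratio of the type c hairpins was lower in F1-γ. It was 0.213, 0.237 and 0.230 in F1-C, against 0.152, 0.0681 and 0.104 in F1-γ. Every F1-γ library was below every F1-C library, with F1-γ replicate 2 lowest. The log2 difference was -1.14 (SE 0.34, limma adjusted p = 0.0102), a 2.21-fold lower ratio. limma shares the spread over all 20 pairs, and the SE was between 0.33 and 0.37 in every pair. The SE and p of a pair therefore rest largely on other pairs from the same libraries. Of all pairs, 15% were called, with 5.0% called lower in F1-γ, which is the type c pair itself. The other calls, dre-miR-200a-5p and dre-miR-203b-5p, were higher in F1-γ. Of the miR-430 pairs, type c was the only one called.

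The call on the type c ratio rested on most of the libraries, while its direction did not. Without F1-γ replicate 2 the log2 difference was -0.85 (limma adjusted p = 0.0580), and without F1-γ replicate 3 it was -1.15 (adjusted p = 0.104). Without F1-C replicates 1, 2 or 3 the adjusted p was 0.0737, 0.0843 and 0.0904 in the same test. The call was kept without F1-γ replicate 1 (-1.43, limma adjusted p = 0.000811), where 8 of the 20 pairs were called. The SD of the log2 ratio was larger in F1-γ than in F1-C in 18 of the 20 pairs, and for type c it was 0.58 against 0.078. With sample quality weights, chosen after seeing the data, the adjusted p was 0.00752.

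For type b hairpins the 5p count exceeded the 3p count in F1-C. The 5p to 3p ratio was 1.89, 1.96 and 1.97 in F1-C, against 1.68, 0.576 and 1.29 in F1-γ. The groups did not overlap, F1-γ was lower, and in F1-γ replicate 2 the 3p count exceeded the 5p count. The log2 difference of -0.85 (SE 0.35) had a limma adjusted p of 0.0788 and was not called. It was called with more than 100 counts required for both arms (limma adjusted p = 0.0494), where 4 of 12 pairs were called. It was also called without F1-γ replicate 1 (-1.17, limma adjusted p = 0.00673), where 8 of the 20 pairs were called. Without F1-γ replicate 2 the log2 difference of type b was -0.40. The groups did not overlap with F1-γ lower in 15% of all 20 pairs. These were the type b pair itself, the type c pair and the pair of dre-miR-30e-5p.

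The type a entry without a copy number was a small fraction of dre-miR-430a-3p. dre-miR-430a-5p had 0.0332, 0.0485 and 0.0407 counts per count of dre-miR-430a-3p in F1-C, against 0.0273, 0.0512 and 0.0369 in F1-γ, with a log2 difference of -0.11 (SE 0.34, limma adjusted p = 0.880). dre-miR-430a-12-5p stood at 0.0336 to 0.0775 counts per count of dre-miR-430a-3p, with a log2 difference of 0.11 (SE 0.35). Its counts are those of the shared series, so this is not the arm ratio of type a hairpins alone. dre-miR-430a-5p leaves out the counts that stand under numbered type a names. Its ratio therefore does not cover all type a hairpins either. The groups overlapped in both pairs, and the sign of each changed with single libraries.

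dre-miR-430i-5p had 23.4 to 46.3 counts for each count of dre-miR-430i-3p. This is a ratio of reads shared with 8 type a entries to a 3p entry that is not in a fixed ratio with others, so it is not the arm ratio of the type i hairpins. Its log2 difference was 0.31 (SE 0.34, limma adjusted p = 0.598).

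**Figure D5:**
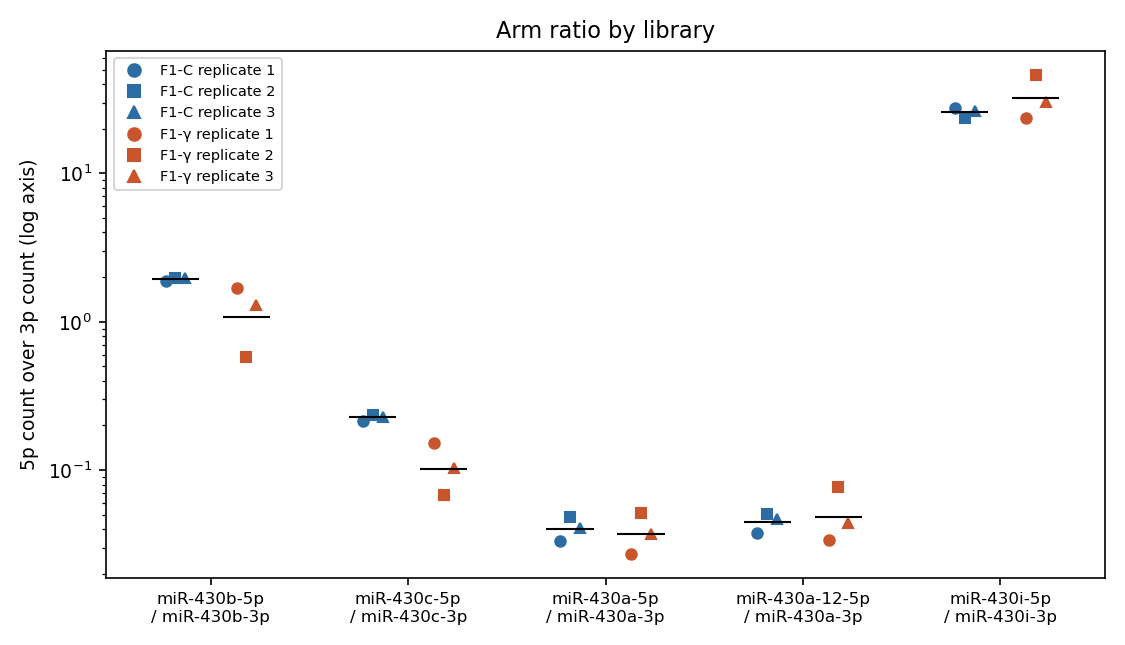
5p count over 3p count (log axis) for 5 miR-430 pairs in 3 F1-C and 3 F1-γ libraries (points), with geometric means (lines). For dre-miR-430c the F1-γ libraries (0.0681 to 0.152) lie below the F1-C libraries (0.213 to 0.237), and F1-γ replicate 2 is lowest for types b and c.

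The composition of the 5p reads, counted once, was dominated by type b in each library. dre-miR-430b-5p took 79.7%, 75.2% and 76.5% of them in F1-C, against 80.7%, 50.4% and 74.6% in F1-γ. dre-miR-430-5p took 11.1%, 13.1% and 12.9% in F1-C, against 10.9%, 31.6% and 14.5% in F1-γ. F1-γ replicate 2 was outside the range of the other 5 libraries for both entries. dre-miR-430b-5p had 7.21, 5.73 and 5.91 counts per count of dre-miR-430-5p in F1-C, against 7.37, 1.59 and 5.15 in F1-γ. The log2 of this ratio was 2.64 ± 0.18 for F1-C, against 1.97 ± 1.16 for F1-γ (SD, n = 3), and a two-sided exact permutation test gave p = 0.5, where 3 libraries against 3 cannot go below 0.1. Without F1-γ replicate 2 the log2 difference was -0.02 in place of -0.67.

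Against the shared reads, the groups did not overlap for the remaining pair of series. dre-miR-430c-5p had 0.197, 0.193 and 0.185 counts per count of dre-miR-430-5p in F1-C, against 0.176, 0.0893 and 0.138 in F1-γ, and dre-miR-430a-5p had 0.639, 0.695 and 0.632 in F1-C, against 0.591, 0.480 and 0.613 in F1-γ. For each, every F1-γ library was below every F1-C library. These 2 ratios were computed after the counts were seen and were not tested. How often such ratios separate the groups for other entries was not computed. In CPM, 33.6% of all tested miRNAs did not overlap.

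Likeness to other miRNAs was measured as the root mean square difference of log2 CPM over the 6 libraries, each centred on its own mean, among tested miRNAs outside the family. The nearest to dre-miR-430b-5p was dre-miR-725-3p (0.10), followed by dre-miR-735-5p (0.16), where the median of all was 0.57. The nearest to dre-miR-430c-5p was dre-miR-200c-3p (0.092), followed by dre-miR-23a-3p (0.19), against a median of 0.42. For dre-miR-430-5p the nearest were dre-miR-26b-5p (0.13) and dre-miR-19c-3p (0.15), and for dre-miR-430a-5p they were dre-miR-454a-3p (0.14) and dre-miR-26b-5p (0.17). The neighbours of the 4 series thus differed, except that dre-miR-26b-5p and dre-miR-19c-3p were among the 3 nearest of both dre-miR-430-5p and dre-miR-430a-5p. F1-γ replicate 2 was the lowest library for dre-miR-430b-5p, dre-miR-725-3p (419 CPM) and dre-miR-735-5p (483 CPM). It was the highest for dre-miR-430-5p, dre-miR-26b-5p (190 CPM) and dre-miR-19c-3p (119 CPM). For dre-miR-430c-5p and dre-miR-200c-3p, F1-γ replicate 3 was the lowest. Likeness was not computed without F1-γ replicate 2.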

How the data were processed

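The miRNA table holds estimated counts, deposited by the authors, from the quantifier of miRDeep2 run with its option to weight a read by how many loci it maps to, after adapter trimming with Trim Galore 0.3.7. The deposited counts are not scaled to library size. The estimated counts of piRNA clusters, deposited by the authors on GRCz10, gave library totals for an alternative only. Libraries were assigned by the names in their labels. F1-γ replicate 3 carries 2 numbers in its title, and the one unused elsewhere in the group was taken. The methods call the 3 libraries of a group biological replicates, each from its own pool.

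Counts were rounded and tested with edgeR 4.0.16 (R 4.3.3), TMM normalization and Benjamini-Hochberg adjustment over the 122 miRNAs with more than 30 counts in every library. Standard errors are the size of the log2 FC over the square root of the F statistic. CPM used TMM factors, apart from the markers of later tissues, whose CPM used library totals. Log2 CPM used a prior count of 2. Arm ratios used a pseudocount of 0.5 and limma 3.58.1. DESeq2 1.42.0 was an alternative. The fits were also run on simulated data, in which arm ratios were independent between pairs and equally spread in both groups. The measured ratios spread more in F1-γ in 18 of the 20 pairs, so this simulation does not bear on their p-values. Named entries are the 13 5p and 4 3p entries and the 3 nearest miRNAs of each series. Members, lists and tests were chosen with earlier results of these data known.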

Additional observations from a re-analysis of the deposited data

How the results depend on the processing

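Of the 21 alternatives set at the start and 3 added after seeing the data, few changed a call on the 5p entries. The number of 5p entries called, 0 in the report, was 1 under upper-quartile normalization (dre-miR-430c-5p) and 0 to 1 with single libraries left out. It stayed at 0 with the replicate number as a block (replicate block), where dre-miR-430c-3p was called (log2 FC 0.65, edgeR adjusted p = 0.0294) and the 12 calls over all miRNAs were close to the 11 without the block. Deviations of same-numbered libraries correlated at -0.092, 0.075 and -0.023, and the block left 3 arm ratios called. With 3 libraries in a group, these values cannot settle whether the replicate numbers pair the libraries. The number of arm ratios called, 3 in the report, ranged from 0 to 8 with single libraries left out.

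Calls over all miRNAs were 11 in the report, 27 with no count minimum, 5 with more than 100 counts required, 2 with library sizes from piRNA clusters and 4 to 26 with single libraries left out. The split of 5 higher and 6 lower became 3 and 13 under upper-quartile normalization, 4 and 9 under RLE, 5 and 10 by DESeq2, and 4 and 10 with identical entries kept once and sums removed.

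Signs changed for small estimates only. Under upper-quartile normalization the log2 FC was -0.23 for dre-miR-430-5p and -0.079 for dre-miR-430b-3p. With library sizes from piRNA clusters it was 0.024 for dre-miR-430a-3p, and with quality weights the arm ratio of dre-miR-430a-12-5p differed by -0.015. With single libraries left out, log2 FC ranged from -0.18 to 0.30 for dre-miR-430-5p, from -0.58 to 0.068 for dre-miR-430a-11-5p, from -0.31 to 0.074 for dre-miR-430a-5p and from -0.19 to 0.053 for dre-miR-430a-3p, and the arm ratio from -0.22 to 0.38 for dre-miR-430a-12-5p and from -0.34 to 0.11 for dre-miR-430a-5p. The cause of these changes was not tested. The difference in the 5p share of the family was -3.64 percentage points as listed, and -5.10 to -2.61 as listed with single libraries left out. It was -5.96 with identical entries once and sums removed, and -5.83 with shared reads counted once. Neither of these was recomputed with single libraries left out. The log2 ratio of dre-miR-430b-5p to dre-miR-430-5p kept its sign with single libraries left out (-1.13 to -0.02).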
